A study of Mus musculus with 2 samples.

Results

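The genes of the cytosolic chaperonin CCT, also called TRiC, were compared between 2 cultures of mouse CD4 T cells. The 8 genes Tcp1, Cct2, Cct3, Cct4, Cct5, Cct6a, Cct7 and Cct8 encode its α, β, γ, δ, ε, ζ, η and θ subunits, and all probe sets that the array annotation assigns to exactly 1 of them were taken. This gave 25 of 45037 probe sets, and 8 of 18193 named genes. The set was put forward with these signals known, so its values are a description and carry no test.

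Splenic CD4 T cells of wild-type C57BL/6 mice, sorted magnetically to a purity above 98%, were activated for 2 days through the T cell receptor, by antibody fixed to the plate, and through CD28, then kept for 3 more days. The CD103+ Th1 culture received 3 ng/ml IL-4, 10 ng/ml IFN-γ and 3 ng/ml TGF-β. The Th1 culture received 1 ng/ml IL-12 and 1 µg/ml of the IL-4-blocking antibody 11B11. Each culture's total RNA was measured on 1 Affymetrix mouse expression array. The labels do not give the age or number of the mice, and no error between cultures or arrays can be had.

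CCT is a barrel of a pair of stacked rings, each holding 1 copy of every subunit. It takes up unfolded proteins and, driven by ATP, closes its lid over them while they fold. Actin and tubulin are its best known substrates, and proteins with WD repeats, among them the cell cycle activator Cdc20 and G protein β subunits, also depend on it. Prefoldin hands newly made actin and tubulin to it, and phosducin-like proteins act as its cofactors. T cells make much of it when they grow and divide after stimulation, and mice that lack Cct8 in T cells have impaired T cell maturation and function. The 8 genes lie on 8 different chromosomes, which are 17 for Tcp1, 10 for Cct2, 3 for Cct3, 11 for Cct4, 15 for Cct5, 5 for Cct6a, 6 for Cct7 and 16 for Cct8 in GRCm38.p6.

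All 8 subunit genes had a lower signal in CD103+ Th1 than in Th1, by 1.33-fold to 1.90-fold. The median log2 ratio, CD103+ Th1 over Th1, was -0.59, which is a signal 33.4% lower. A log2 ratio below 0 was found for 52.6% of all 11194 measured genes, which had a median of -0.03. Because their probe sets were bright, between percentiles 93.2 and 98.1 of mean signal, the subunit genes were also set beside the 543 other genes whose mean signal lay within their range. Of these, 59.9% were below 0, and their median was -0.09. A gene counted as measured where its signal was above 78.5, the median signal of both arrays, on at least 1 array, and each gene was described by its brightest probe set, judged by the mean of both log2 signals. In RNA of whole cultures, fewer cells of a kind and less RNA per cell cannot be told apart.

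A signal at least 20% lower in CD103+ Th1 was found for 8 of 8 subunit genes, against 26.4% of measured genes and 26.2% of the equally bright ones. A signal at least 25% higher was found for 0 of 8, against 23.6% and 16%. At least 1.5-fold lower were 4 of 8, namely Tcp1, Cct8, Cct6a and Cct7, against 13.4% and 9.21%. At least 2-fold lower were 0 of 8, against 4.87% and 2.03%, and at least 2-fold higher 0 of 8, against 5.04% and 3.13%. The 8 genes thus shared a direction, and each difference was small. With 1 array per culture, a 1.5-fold difference in 1 gene cannot be separated from array error.

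**Figure D1:**
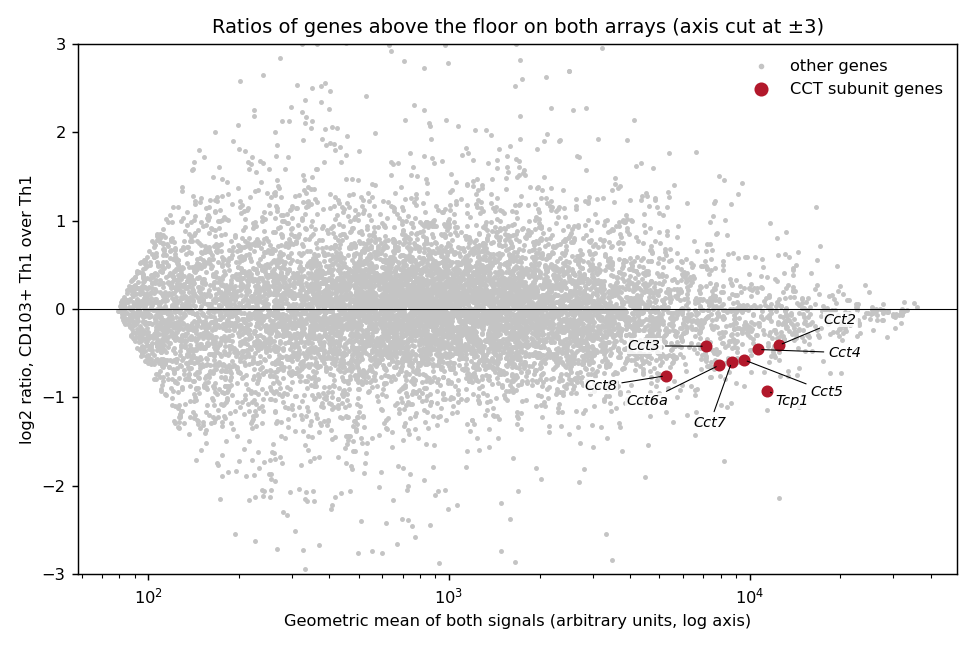
Each point is a gene above the floor on both arrays, with the geometric mean of its signals on the x axis (arbitrary units, log axis) and the log2 ratio, CD103+ Th1 over Th1, on the y axis; ratios beyond 3 either way are not shown. The 8 CCT subunit genes, in red, lie at the bright end and between -0.93 and -0.41.

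Tcp1, the α subunit and the founding member of the family, first described in the mouse t complex, had the largest difference. Its only probe set read 8291 in CD103+ Th1 and 15760.5 in Th1, which is 1.90-fold lower, a log2 ratio of -0.93. Only 2.39% of the equally bright genes had a ratio as low or lower.

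The θ subunit gene Cct8 followed, reading 4052 in CD103+ Th1 and 6837.5 in Th1 and a log2 ratio of -0.75. A second Cct8 probe set was under the floor in both cultures, at 11.1 in CD103+ Th1 and 26.3 in Th1, and gave no ratio. This gene therefore rests on its brighter probe set alone. The ζ subunit gene Cct6a read 6367 in CD103+ Th1 and 9882 in Th1, a log2 ratio of -0.63. Its second probe set lay close by, at 5600.1 in CD103+ Th1 and 9318 in Th1 with a ratio of -0.73. Cct7, which encodes the η subunit, had 7081 in CD103+ Th1 and 10723.5 in Th1 on its brighter probe set, a ratio of -0.60, and 4434 against 6844 on the other, a ratio of -0.63. For Cct6a and Cct7 both probe sets were thus on the same side.

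Cct5 encodes the ε subunit, in which a human mutation causes a hereditary sensory neuropathy. Its single probe set had 7832 in CD103+ Th1 and 11661 in Th1, a log2 ratio of -0.57. Tcp1, Cct5 and Cct8 were thus measured by 1 probe set each, which leaves their ratios without a second reading.

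The δ, γ and β subunit genes had the smallest differences. Cct4 had 9097 in CD103+ Th1 and 12492 in Th1 on its brightest probe set, a log2 ratio of -0.46. Cct3 had 6172.5 in CD103+ Th1 and 8264 in Th1, a ratio of -0.42, and Cct2 had 10846 in CD103+ Th1 and 14408 in Th1, a ratio of -0.41. These ratios lay below the 25th percentile of the equally bright genes, -0.34, but were not rare among them. Of those genes, 16.6% were as low as Cct4 or lower, 19.9% as low as Cct3 and 20.8% as low as Cct2.

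These 3 genes also have the most probe sets, and their readings differed. The 3 probe sets of Cct2 ranged from -0.41 to -0.20, the dimmest of them with 6765 in CD103+ Th1 and 7774 in Th1. Of 7 Cct3 probe sets, 5 were measured and all were below 0, from -0.78 to -0.21. The lowest of these had 3095 in CD103+ Th1 and 5309 in Th1. Both remaining Cct3 probe sets lay under the floor, and one of them was higher in CD103+ Th1, at 43.0 against 8.58, values that are background here. Within Cct3 alone the probe sets thus spanned more than the 0.52 between the lowest and the highest of the 8 genes, so the order of the subunits is not resolved.

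Cct4 was the only subunit gene with measured probe sets on both sides of 0. Its 3 bright probe sets had ratios of -0.58, -0.46 and -0.46, the first with 6670.2 in CD103+ Th1 and 9991 in Th1. Of 3 dimmer ones, 2 were slightly higher in CD103+ Th1, with 806 against 733 (0.14) and 237 against 220 (0.11), and the last had 100.4 against 104.8 (-0.06). The mean over all 6 was -0.22. Both of the higher ones carry the suffix x, which marks probes that can also bind other transcripts. But so do 2 of the 3 bright Cct4 probe sets and the brightest probe sets of Cct2 and Cct3. The remaining Cct4 probe set lay under the floor, at 28.1 in CD103+ Th1 and 9.7 in Th1, and gave no ratio.

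Over the whole family, 21 of 25 probe sets were measured, and 19 of these 21 were lower in CD103+ Th1. The 17 probe sets above a signal of 1000 on both arrays were all lower, from -0.93 to -0.20 with a median of -0.58. The other 4 probe sets did not reach the floor and say nothing about direction. Probe sets of 1 gene read the same RNA and are no replicates of the cultures.

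**Figure D2:**
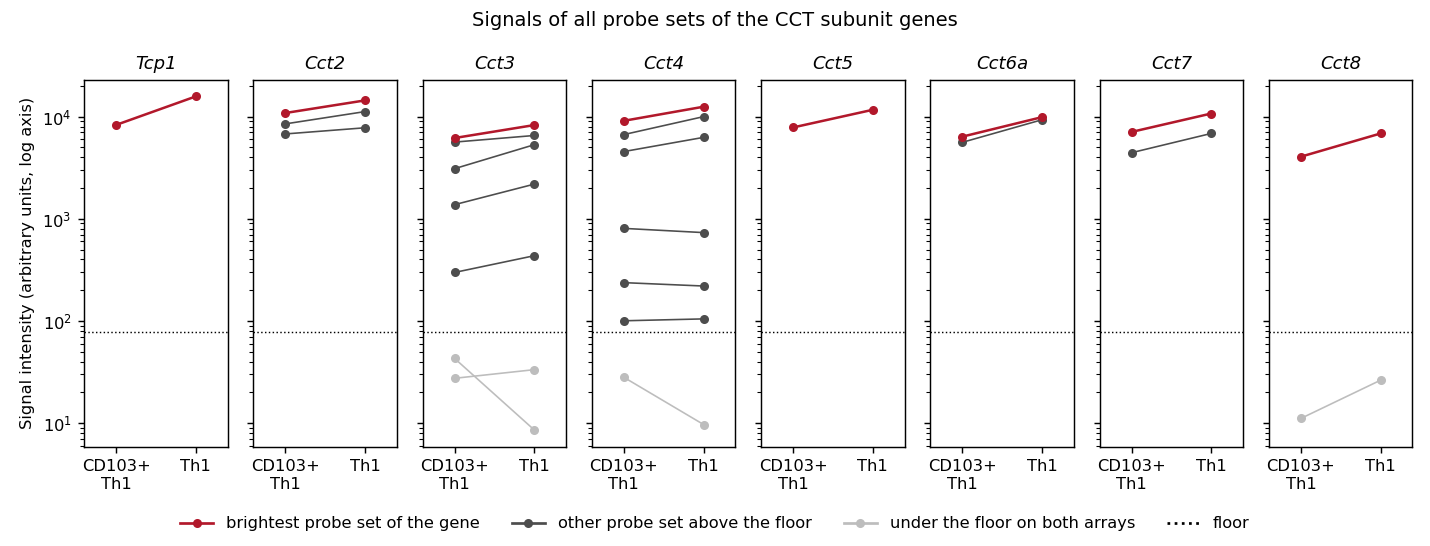
Signals (arbitrary units, log axis) of all 25 probe sets of the 8 genes in CD103+ Th1, on the left of each panel, and Th1, on the right; lines join the values of 1 probe set, and the dotted line is the floor of 78.5. The 17 bright probe sets all slope the same way, and the exceptions are 2 dim probe sets of Cct4 and some of the probe sets under the floor.

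In the assembled ring the subunits follow each other in the order Tcp1, Cct4, Cct2, Cct5, Cct7, Cct8, Cct6a and Cct3, as structures of the complex from other species have shown. In that order the log2 ratios were -0.93, -0.46, -0.41, -0.57, -0.60, -0.75, -0.63 and -0.42. Subunits are needed in equal numbers, but signals of different probe sets cannot be set against each other, so the arrays do not tell which subunit is scarcest.

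The regions before the annotated starts of 4 genes are shown, those with the lowest ratios, Tcp1 and Cct8, and those with the highest, Cct3 and Cct2, since promoters of genes that differ together can be read side by side. Each is the 250 bases before the start, 5′ to 3′ on the gene's strand, from RefSeq in GRCm38.p6. They are chr17:12916079-12916328 (plus strand) for Tcp1, chr16:87495870-87496119 (minus strand) for Cct8, chr3:88296885-88297134 (plus strand) for Cct3 and chr10:117063853-117064102 (minus strand) for the upstream start of Cct2. Capitals mark CCAAT boxes (CCAAT or ATTGG), GC boxes (GGGCGG or CCGCCC) and ETS cores (CCGGAAG or CTTCCGG).
Tcp1: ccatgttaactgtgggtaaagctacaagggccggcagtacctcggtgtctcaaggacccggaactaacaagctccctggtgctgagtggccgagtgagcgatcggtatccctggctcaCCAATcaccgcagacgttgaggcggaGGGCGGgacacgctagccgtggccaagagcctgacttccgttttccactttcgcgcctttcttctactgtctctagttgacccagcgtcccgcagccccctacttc
Cct8: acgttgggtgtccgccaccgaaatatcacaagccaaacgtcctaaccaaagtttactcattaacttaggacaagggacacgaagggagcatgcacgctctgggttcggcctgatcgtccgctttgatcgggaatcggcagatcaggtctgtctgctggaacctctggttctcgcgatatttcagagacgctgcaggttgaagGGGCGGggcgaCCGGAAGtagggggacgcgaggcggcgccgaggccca
Cct3: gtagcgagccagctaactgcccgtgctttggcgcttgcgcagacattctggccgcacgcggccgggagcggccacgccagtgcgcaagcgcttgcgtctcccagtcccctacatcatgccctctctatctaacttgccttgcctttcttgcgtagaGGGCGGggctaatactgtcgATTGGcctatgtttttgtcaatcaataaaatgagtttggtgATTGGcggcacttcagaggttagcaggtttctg
Cct2: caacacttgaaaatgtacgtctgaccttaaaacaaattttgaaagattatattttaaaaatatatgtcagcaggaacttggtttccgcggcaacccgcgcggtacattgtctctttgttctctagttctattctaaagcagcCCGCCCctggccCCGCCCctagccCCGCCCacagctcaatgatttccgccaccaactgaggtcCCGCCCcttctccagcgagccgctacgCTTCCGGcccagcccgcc

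Motifs were searched on both strands in windows of 300 bases, which add the 50 bases after the start. Of the 8 genes, 7 had windows, 9 in all, since Cct2 and Cct5 have 2 starts each, and Cct4 had none here. GC boxes, the sites of Sp1-type factors, were in 8 of 9 windows and in all 7 genes, against 35.7% of all 32851 windows and 64.5% of the 564 windows of equally bright genes. CCAAT boxes, bound by NF-Y, were in the windows of Tcp1, Cct3, Cct6a and Cct7, 4 of 9. They were in 37.4% of all windows and 41.1% of those of equally bright genes. ETS cores were in those of Tcp1, Cct2 and Cct8, 3 of 9, against 8.86% of all windows and 18.1% of those of equally bright genes. The ETS core of Tcp1 spans the start and is therefore cut off in the printed sequence, while that of Cct8 begins 37 bases before the start and that of Cct2 18 bases before it. Cct7 has 3 CCAAT boxes, which begin 187, 125 and 95 bases before its start.

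Heat shock factors, which control many chaperone genes, bind repeats of the letters GAANNTTC or TTCNNGAA. Such a core was in 3 of 9 windows, against 15.1% of all windows and 14% of those of equally bright genes. The 3 were those of Cct6a, the downstream start of Cct2 and the upstream start of Cct5. TTCNNNGAA is the letters of sites for STAT factors, which carry cytokine signals such as that of IFN-γ. It was in 1 of 9, the upstream window of Cct5, against 8.30% of all windows and 5.67% of those of equally bright genes. The E-box CACGTG of MYC-type factors was in 0 of 9, against 7.15% and 10.5% of the same backgrounds. The TATA box TATAAA was in 0 of 9, against 13.6% and 8.16%, and the SMAD palindrome GTCTAGAC in 0 of 9, against 0.213% and 0.355%. No matches overlapped each other, and none of these counts was tested. The GC content of the 9 windows had a median of 60.3%, against 61.3% in windows of equally bright genes and 52.7% in all windows.

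**Figure D3:**
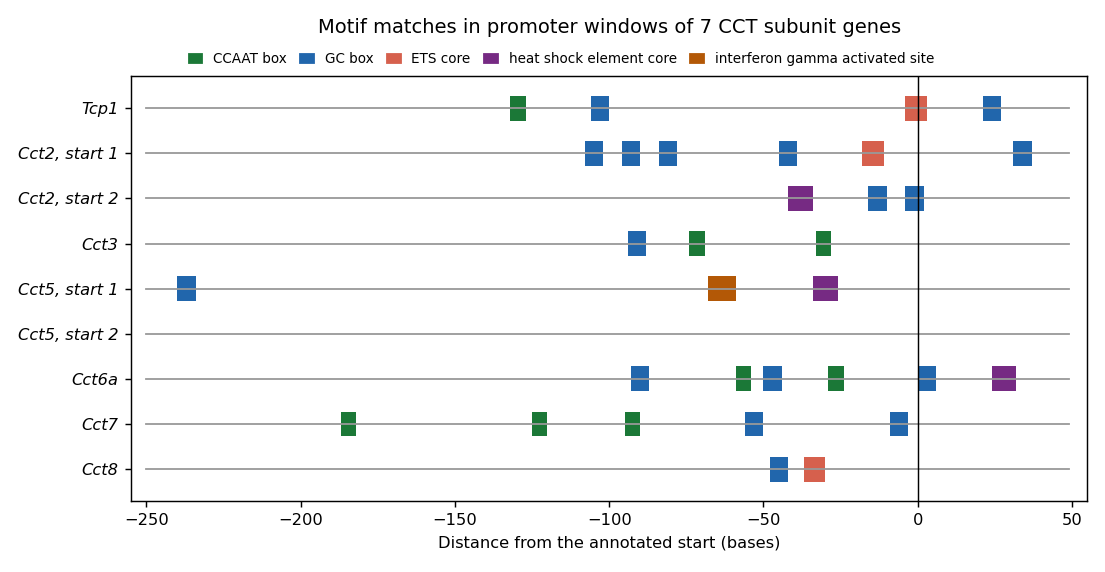
Positions of motif matches in the 9 promoter windows of 7 CCT subunit genes, by distance from the annotated start in bases, with the start at 0. GC boxes (blue) are in 8 of 9 windows and CCAAT boxes (green) in 4, and the second Cct5 window holds none of the motifs.

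Several of the genes start next to a gene on the opposite strand. Within 1000 bases, 6 of the 7 had such a neighbour, which was chosen by position alone, with the values of the subunits already known. The share of all genes with such a neighbour was not counted, so this cannot be called particular to the subunit genes. Mrpl18, a mitochondrial ribosomal protein gene whose start lies 238 bases from that of Tcp1, had 3446 in CD103+ Th1 and 5370.4 in Th1, a log2 ratio of -0.64. Psph, the last enzyme of serine synthesis, lies 103 bases from Cct6a and had 1278 in CD103+ Th1 and 1795 in Th1, a ratio of -0.49. Both were thus lower in CD103+ Th1 like their partners, a direction shared by 52.6% of all measured genes. Pradc1 beside Cct7 and Atpsckmt beside Cct5 had ratios of -0.27 each, within the range of most genes. Tsacc beside Cct3 was close to the floor, with 122.9 in CD103+ Th1 and 99.95 in Th1, and B130034C11Rik beside Cct8 had no measured value.

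The cofactors that feed CCT were then read from lists of its known partners. Of the 6 prefoldin subunit genes, 5 were below 0 and 3 at least 20% lower in CD103+ Th1, against 52.6% and 26.4% of measured genes, with a median of -0.36. Pfdn4 had 861 in CD103+ Th1 and 1674 in Th1 (log2 ratio -0.96), Pfdn1 had 2005 against 3447 (-0.78) and Pfdn2 had 1634 against 2282 (-0.48). Pfdn5 was on the other side, with 10101 in CD103+ Th1 and 8067.5 in Th1 (0.32). Among phosducin-like cofactors, Pdcl3 had 2112 in CD103+ Th1 and 2897 in Th1 (-0.46), and Pdcl2 lay under the floor. On their brightest probe sets Pdcl (-0.01) and Txndc9 (0.11) were nearly equal. Another probe set of Pdcl was at -0.39, and those of Txndc9 reached 0.69.

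Of the main substrates, both actins and the β-tubulin Tubb5 had log2 ratios near 0, while other bright tubulin genes were lower in CD103+ Th1 to differing degrees. Actb, cytoplasmic β-actin, had 25445 in CD103+ Th1 and 25541 in Th1 (log2 ratio -0.01), Actg1, γ-actin, had 29435 against 31322 (-0.09) and Tubb5 had 17968 against 18874 (-0.07). Tubb4b had 9811 in CD103+ Th1 and 14203 in Th1 (-0.53), with other probe sets from -0.86 to -0.24, and Tuba1a had 11630 against 14418 (-0.31). Tuba4a differed less, with 13493.5 in CD103+ Th1 and 15197 in Th1 (-0.17) and another probe set at -0.27. Of 16 measured actin and tubulin genes 14 were below 0 and 6 reached 20% lower, against 52.6% and 26.4% of measured genes. Their median was -0.20. The largest differences were in dimmer tubulin genes, at least 4.24-fold lower for Tuba8, with a second probe set at -0.11, 3.23-fold lower for Tubb2b, at least 2.06-fold lower for Tubg2 and 1.75-fold lower for Tubb6, with a second probe set at -0.31. Tuba1b was not analysed here.

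Of 20 WD-repeat and other substrates 16 were below 0, against 52.6% of measured genes, with a median of -0.12. At least 20% lower were 4, a share under the 26.4% of all measured genes. Those were the G protein subunit gene Gnb5, with 280.2 in CD103+ Th1 and 757 in Th1 (-1.43), the peroxisomal import receptor gene Pex7 (-0.79), Strap (-0.55) and Rptor, a component of the growth-controlling complex mTORC1 (-0.52). Tubulin folding cofactors, which act after CCT, had a median of -0.11 over 6 genes. In that list Arl2 was lowest at -0.62, Tbca had -0.25 and Tbcd -0.14, and Tbcb was higher at 0.19.

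Relatives of CCT outside the complex showed no common difference. Cct6b, the testis form of the ζ subunit, lay under the floor with 28.4 in CD103+ Th1 and 61.4 in Th1. Mkks had a log2 ratio of 0.14 and Bbs12 one of -0.08, both genes of Bardet-Biedl syndrome proteins that resemble chaperonins, and Bbs10 was at the floor.

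On their brightest probe sets, most other cytosolic chaperone and cochaperone genes were below 0 as well. The list of HSP70, HSP110 and HSP40 genes also holds HSP70 cochaperones, such as Bag2, and a small heat shock protein gene. Of its 21 measured genes, 19 were below 0, against 52.6% of measured genes, and the median was -0.32. At least 20% lower were 10 of them, against 26.4% of measured genes, and at least 25% higher 2, against 23.6%. Several of the 19 had another probe set above 0, among them Hspa4 (1.07), Dnaja4 (0.84), Hspa14 (0.53) and Dnaja1 (0.52). Dnajb6, which was above 0, had another at -0.77. Hspa8, the constitutive HSP70, had 25410.4 in CD103+ Th1 and 26133 in Th1 (log2 ratio -0.04), and its 4 probe sets ranged from -0.70 to -0.04. The largest differences were Bag2 (-1.27), an HSP70 cochaperone, Dnajb4 (-1.16) and Hspa2 (-1.15), and, in the other direction, Dnajc7 with 8308 in CD103+ Th1 and 2754 in Th1 (1.59). In the HSP90 group, 9 of 11 measured genes were below 0, 5 reached 20% lower and 2 reached 25% higher. Among all measured genes these shares were 52.6%, 26.4% and 23.6%. The median was -0.12, but -0.29 where a gene's measured probe sets were averaged. Hsp90aa1, the inducible HSP90, had 10360.2 in CD103+ Th1 and 17452 in Th1 (-0.75, with other probe sets down to -1.45), Stip1, which links HSP70 and HSP90, had 2122 against 3610.4 (-0.77), and Fkbp4 had 1011 against 2027 (-1.003, with another probe set at -0.15). Tsc1 was higher at 0.55, with another probe set at 0.19, and Hsp90ab1 was not analysed here.

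The list of mitochondrial chaperones, which also holds protease genes such as Lonp1, came closest to CCT in its median, -0.52 over 10 genes. Hspd1, the mitochondrial chaperonin HSP60, had 4054 in CD103+ Th1 and 8069 in Th1 (log2 ratio -0.99), and its lid Hspe1 had 5623 against 7919 (-0.49). Both parts of that chaperonin were thus on the same side as CCT. Lonp1, a mitochondrial protease, had 1332 in CD103+ Th1 and 2849 in Th1 (-1.10), Hspa9, the mitochondrial HSP70, had 1725 against 3297 (-0.93) and Dnaja3 had 501 against 869 (-0.80). Chaperones of the endoplasmic reticulum had a median of 0.07, with Pdia3 (0.66), Hyou1 (0.65) and Dnajb9 (0.73) higher in CD103+ Th1 and P4hb (-0.56) lower. A second Pdia3 probe set had 0.18, a second Hyou1 probe set had -0.17, and the median of the list was -0.058 with the dimmest probe sets. Of 10 mitochondrial genes 7 reached 20% lower, and of 14 endoplasmic reticulum genes 5, against 26.4% of measured genes.

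The 20S proteasome core, another barrel of several subunits with bright probe sets, had a median of -0.22. Of its 14 genes 13 were below 0, against 52.6% of measured genes and 59.9% of genes as bright as the CCT subunits. Some of the 14, such as Psmb7, were dimmer than that range. At least 20% lower were 4 of the 14, a share near the 26.4% and 26.2% of those backgrounds, and 0 reached 1.5-fold lower, against 13.4% and 9.21%. The lowest were Psmb7 (-0.43), Psmb5 (-0.35), Psmb6 (-0.34) and Psma6 (-0.34, with other probe sets up to 0.22). With 1 array per culture, no difference between these lists could be tested.

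**Figure D4:**
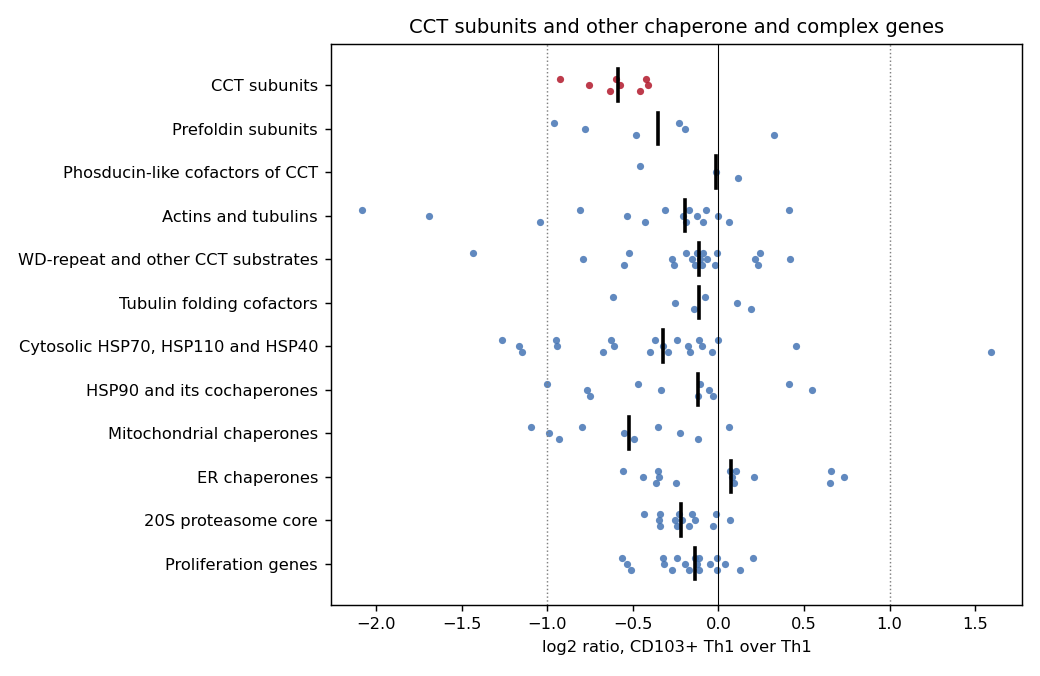
Each point is a measured gene of a list, placed by its log2 ratio, CD103+ Th1 over Th1; black bars are medians and dotted lines mark 2-fold differences. The CCT genes, in red, have the lowest median of the lists drawn, -0.59, and none of them reaches 0. Next is -0.52 for the mitochondrial chaperone list, which includes proteases.

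Of the heat shock factor genes, Hsf1 was not analysed here, Hsf4 lay under the floor and Hsf2 had 56.8 in CD103+ Th1, under the floor, and 138.9 in Th1. Hsbp1, which encodes a protein that binds heat shock factor 1, had a log2 ratio of -0.19, with a second probe set at 0.27.

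Of 19 measured proliferation genes 16 were below 0, against 52.6% of measured genes and 59.9% of genes as bright as the CCT subunits. Their median was -0.14. Several of the 19, such as Aurkb, lay outside that brightness range. At least 20% lower were 4 of the 19, a share under the 26.4% and 26.2% of those backgrounds, and 0 reached 1.5-fold lower, against 13.4% and 9.21%. The 4 were Rrm1 (-0.56), Aurkb (-0.54), Mcm3 (-0.51, with other probe sets down to -1.12) and Cdk1 (-0.33). The summed signal of all 19 proliferation genes was 138791 in CD103+ Th1 and 154377 in Th1. The part of proliferation in the CCT difference was not tested.

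T cell genes were present in both cultures, with a median log2 ratio of 0.20 over 9 markers. Cd3e had 3652 in CD103+ Th1 and 2721 in Th1, and Cd4 had 1081 against 973. Of the 9 markers 2 were below 0, Zap70 (-0.20, with other probe sets up to 0.16) and Cd28 (-0.17). Cd8a (2.14, with its 5 probe sets from 0.24 to 2.16) and Cd8b1 (1.19) were higher in CD103+ Th1, and the summed CD8 signal was 3647 in CD103+ Th1 and 1163 in Th1. Of 5 B cell markers 3 lay under the floor, Ms4a1 among them, Cd79b had 244 in CD103+ Th1 and 75.8, under the floor, in Th1, Blk had a log2 ratio of -0.25, and the summed signal was 423 in CD103+ Th1 and 344 in Th1. Of 8 myeloid markers 4 lay under it, and the summed signal was 880 in CD103+ Th1 and 894 in Th1. The measured ones went both ways, with Cd74 at 526 in CD103+ Th1 and 207 in Th1 (1.35), Cd68 at 103.8 against 233 (-1.17), Csf1r at -0.67, with another probe set at -0.06, and Adgre1 at -0.01. Of 3 NK cell markers 2 lay under the floor, and the last was Nkg7, which activated T cells also make, at -0.90. The sums of the NK list were 4935 in CD103+ Th1 and 9197 in Th1. No marker was listed at 0, and the part of other cells in the CCT difference was not tested.

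Likeness was measured as the distance from the subunits' median log2 ratio over the 2 arrays, and the nearest genes with a signal of at least 4 times the floor on both arrays were Fech, Asnsd1 and Fignl1, all at -0.59. Of 7274 such genes, 257 lay within 0.05 of that median.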

How the data were processed

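Per the submitters' processing notes, the authors made the deposited signal intensities with Affymetrix GCOS, with the version and the scaling target not given in the sources used here. In it stands 1 linear intensity for each probe set on each of 2 arrays. The medians were 78.0 in CD103+ Th1 and 78.8 in Th1 and the 2% trimmed means 498 and 497, so no further scaling was applied. The table used here has no detection calls.

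Of 45037 probe sets, 34945 had 1 gene symbol in the platform annotation, 932 several and 9160 none. Symbols were updated by gene identifier to the GRCm38.p6 table, which 34741 matched. Signals under the floor of 78.5 were set to it, and no ratio was formed where both values were under it. A fold against a value under the floor is a lower bound. Of 11194 measured genes, 10045 were above the floor on both arrays. Precision is limited by the number of arrays, and with 1 per group no test was made.

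Genes named beyond the subunits were those of partner and marker lists: up to 4 per list with the largest ratio at 4 times the floor or more, and some fixed names. Bbs10, Hsf2, Hsf4, Pdcl2, Tuba1a, Tubg2, Cd79b, Blk, Cd68, Csf1r, Adgre1 and the neighbouring genes were added for completeness. So were Tuba4a, Tubb3, Tbl1xr1, Hspa4, Hspa14, Dnaja1, Dnaja4, Dnajb6, Cd28 and Zap70. Members and lists were chosen with earlier results of these data known. Alternatives covered scaling, floor, pseudocount and probe set. The steps were run in Python 3.11.15 with pandas 2.3.3 and were tested on simulated data.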

Additional observations from a re-analysis of the deposited data

How the results depend on the processing

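With no replicates, a log2 value was counted as moved where it differed by 0.1 or more. All 8 subunit genes were below 0 under each of the 10 alternatives to scaling, floor and probe set, and their median lay between -0.60 and -0.50. Changing the floor could not move the subunit genes, since their brightest probe sets read 4052 or more. The pseudocount, and setting equal the medians or the trimmed means, which were already nearly equal, could hardly move them, so these alternatives are no check on them. The choice of probe set could not move Tcp1, Cct5 and Cct8, which have 1 measured probe set each. Taking probe sets without suffix letters changed only Cct4 and Cct6a. The number of subunit genes at least 20% lower was 6 to 8. The lowest count arose from the choice of probe set, which moved Cct4 to -0.06 and Cct2 to -0.20 with the dimmest one. At 1.5-fold in place of 2-fold, 4 subunit genes were called. The share of measured genes at least 2-fold lower was 4.87%, and 7.63% with the floor at the 25th and 2.78% with it at the 75th percentile. The HSP90 median of -0.12 became -0.29 where probe sets were averaged and -0.40 with the dimmest one. That of the HSP70, HSP110 and HSP40 list, -0.32, became -0.17 with either, and that of phosducin-like cofactors, -0.01, became -0.20 and -0.39. Medians of a few lists changed sign. That of phosducin-like cofactors was 0.0024 with medians set equal and 0.077 when centred on equally bright genes. That of chaperonin relatives was 0.013 when so centred and 0.032 with the higher floor. B cell markers were at -0.58 with the lower floor, myeloid markers at 0.16 with the higher one, and endoplasmic reticulum chaperones at -0.052 without suffix letters and -0.058 with the dimmest probe set. The cause was not tested. No paired analysis was possible because each culture had 1 array. Depth is not defined for arrays, and signals near the floor limit dim genes.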
